A study of Homo sapiens with 16 samples.

Results

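The FOX and SOX transcription factor genes were taken as every protein-coding gene of chromosomes 1 to 22 whose symbol begins FOX with a subclass letter A to S and a number, or reads SOX and a number. The rule found 67 genes, 49 FOX and 18 SOX, among 19122 protein-coding genes of these chromosomes in the RefSeq annotation of GRCh38.p14. It used names only and no measured value. FOXL2NB, a neighbour of FOXL2 that is named for its position, met the rule by its letters, and FOXD4 and its copies are near-identical paralogs whose reads can be assigned to the wrong copy.

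Accessible chromatin was profiled by ATAC-seq, in which a transposase inserts sequencing adapters into open DNA, in MDA-MB-231, a human breast adenocarcinoma line that is negative for oestrogen receptor and mesenchymal in shape. There were 16 samples in 4 groups of 4, all with the genotype labelled WT: selected cells on soft gel, selected cells on stiff gel, ancestral cells on soft gel and ancestral cells on stiff gel. Soft gels had a Young's modulus of 1 kPa and stiff gels 308 kPa, both polyacrylamide coated with type I collagen. In the protocol, selection ran for 75 days with 20000 cells moved to a fresh gel of the same stiffness about weekly, nuclei came from 200000 cells, and each library used 50000 nuclei. The labels do not say on which stiffness the selected cells assayed on stiff gel had been selected, although the stated question concerns soft-selected cells. Nor do they give the passage of the ancestral cells or say whether the 4 samples of a group came from separate cultures.

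The authors deposited 1 peak list per group, so no value has a spread between samples and no comparison below carries a p-value. Lists held 129755 peaks for selected cells on soft gel, 122591 for selected cells on stiff gel, 109578 for ancestral cells on soft gel and 116043 for ancestral cells on stiff gel. Pileup, the number of overlapping reads or fragments at a peak's summit, is not scaled to depth; its median over a list was 51 and 56 in selected cells on soft and stiff gel, against 111 and 132 in ancestral cells. The background level worked back from pileup and fold enrichment was 13.5 and 12.6 in selected cells and 16.3 and 20.2 in ancestral cells. Each list also skips 1.00% of its peak numbers, and every skipped stretch is longer than the widest peak listed. A gene end lying in such a stretch was called undetermined where no listed peak reached it.

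Forkhead box (FOX) proteins bind DNA through a winged-helix domain, and SOX proteins bind through an HMG box that bends the double helix. Many members of both families act as pioneer or lineage factors in the embryo, and outside their own lineage their promoters are often CpG-rich and held silent by Polycomb complexes. In breast tissue FOXA1 opens chromatin for the oestrogen receptor in luminal cells, FOXC1 marks basal-like tumours, FOXM1 drives cell division genes, FOXO factors answer to insulin and AKT signalling, and SOX9 and SOX10 are studied in progenitor and basal-like states.

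The promoters of FOXD1, FOXI1 and FOXI2 are shown because a peak within 1 kb of the gene was counted in both selected lists and in neither ancestral list, and that of FOXA3, which had a tall peak in all 4 lists, is set beside them. At FOXI2 an end peak of each selected list overlapped an ancestral peak lying farther than 1 kb from either end of the gene. With a limit of 3 kb, FOXI1 was so counted on stiff gel but not on soft gel, and FOXD1 and FOXI2 on neither gel. Each window runs from 250 bases before to 50 bases after the gene's start, is read on the gene's own strand and comes from RefSeq, GRCh38.p14. The windows lie at chr5:73448728-73449027 on the minus strand for FOXD1, at chr5:170105647-170105946 on the plus strand for FOXI1, at chr10:127736935-127737234 on the plus strand for FOXI2 and at chr19:45864076-45864375 on the plus strand for FOXA3. Capitals mark matches on either strand to the motifs found there: the GC box GGGCGG, the SOX variant ACAAAG, the AP-1 site TGANTCA and the TATA box TATAAA.
FOXD1: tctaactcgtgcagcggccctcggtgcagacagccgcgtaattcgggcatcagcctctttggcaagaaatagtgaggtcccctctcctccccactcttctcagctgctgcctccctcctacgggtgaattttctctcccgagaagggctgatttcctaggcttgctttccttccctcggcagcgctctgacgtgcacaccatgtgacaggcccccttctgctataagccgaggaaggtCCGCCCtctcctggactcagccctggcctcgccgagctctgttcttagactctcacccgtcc
FOXI1: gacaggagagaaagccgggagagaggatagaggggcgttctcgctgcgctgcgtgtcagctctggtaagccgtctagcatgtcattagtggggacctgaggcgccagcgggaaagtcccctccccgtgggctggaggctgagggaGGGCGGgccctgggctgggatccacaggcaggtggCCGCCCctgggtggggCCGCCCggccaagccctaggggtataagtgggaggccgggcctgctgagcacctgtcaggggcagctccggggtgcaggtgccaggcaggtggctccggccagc
FOXI2: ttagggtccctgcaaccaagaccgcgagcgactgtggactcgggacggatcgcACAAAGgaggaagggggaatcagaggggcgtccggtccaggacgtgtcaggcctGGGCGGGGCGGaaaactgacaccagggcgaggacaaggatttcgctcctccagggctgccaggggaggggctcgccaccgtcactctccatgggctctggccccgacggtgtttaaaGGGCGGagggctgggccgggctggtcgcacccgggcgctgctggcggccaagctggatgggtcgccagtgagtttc
FOXA3: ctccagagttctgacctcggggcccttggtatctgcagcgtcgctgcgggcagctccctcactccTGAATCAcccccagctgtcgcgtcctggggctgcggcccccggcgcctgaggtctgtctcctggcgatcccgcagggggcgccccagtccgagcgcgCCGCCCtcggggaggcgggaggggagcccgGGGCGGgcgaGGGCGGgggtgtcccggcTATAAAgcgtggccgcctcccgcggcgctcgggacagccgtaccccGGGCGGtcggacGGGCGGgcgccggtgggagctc

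FOXD1 holds 1 GC box, FOXI1 holds 3, FOXI2 holds 3 (an overlapping pair among them) with 1 SOX variant, and FOXA3 holds 5 with 1 AP-1 match and 1 TATA box. GC content was 59.7% in FOXD1, 69.7% in FOXI1, 67.3% in FOXI2 and 76.3% in FOXA3. Among all 15100 genes with a promoter window, 64.6% held a GC box, 16.9% the SOX variant, 7.98% the AP-1 motif and 12.5% the TATA box. None of the 4 printed windows matched the forkhead sequences TGTTTAC and TGTTTGC, the SOX sequence ACAATG, the TEAD sequence GGAATG or CCAAT. Such matches describe the letters of these windows and say nothing of which factor is bound.

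A gene was counted as having an end peak where a listed peak came to 1 kb or less from its annotated start or far end. Of the 67 members, 55 were so counted in selected cells on soft gel (82.1%) and 57 in selected cells on stiff gel (85.1%), against 40 in ancestral cells on soft gel (59.7%) and 39 in ancestral cells on stiff gel (58.2%). Over all protein-coding genes the shares were 77.3% and 76.9% in selected cells, against 73.7% and 74.6% in ancestral cells. The members' share was thus above that of all genes in the selected lists and below it in the ancestral lists. The undetermined genes were 3 and 4 in the selected lists and 2 and 3 in the ancestral lists. Both families had this order: FOX genes counted 40 and 42 of 49 in selected cells and 31 and 29 in ancestral cells, and SOX genes counted 15 and 15 of 18 in selected cells and 9 and 10 in ancestral cells.

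For 62 genes the state was determined in all 4 lists. There were 34 with an end peak in every list, 54.8% of the 62, against 72.3% of all 18220 determined genes. A further 13, or 21%, had an end peak in both selected lists and in neither ancestral list, a pattern of 595 genes or 3.27% genome-wide. The reverse pattern, both ancestral lists alone, held for 0 of the 62 and for 0.543% of all genes. FOXI3, SOX11 and SOX14, a neural SOX factor, had no end peak and no peak within 10 kb in any list.

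**Figure D1:**
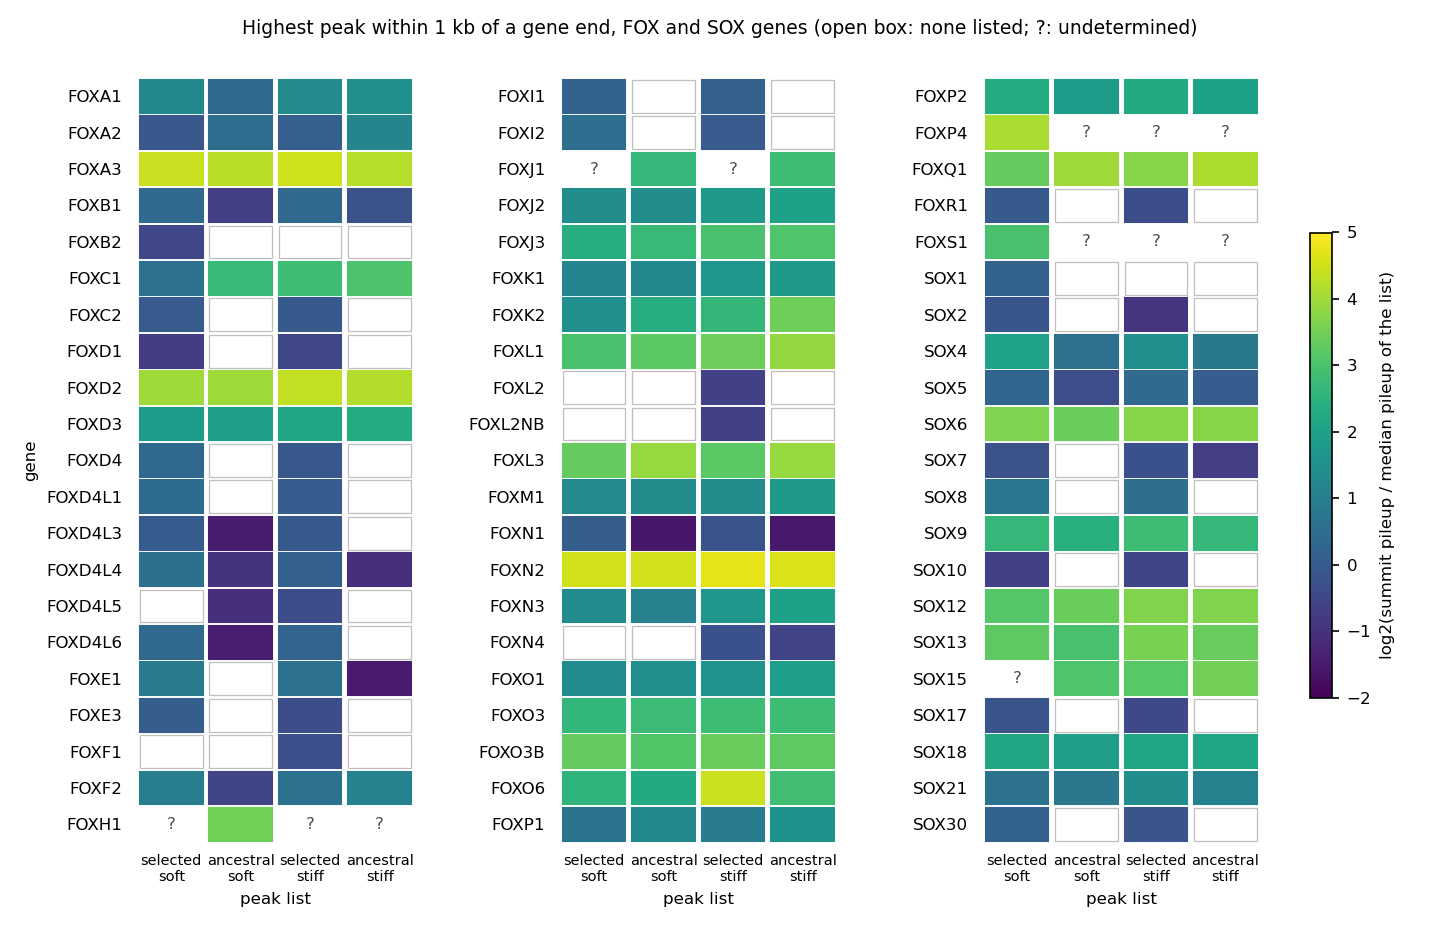
End-peak state of the FOX and SOX genes that had an end peak in at least 1 list (rows) in the 4 deposited lists (columns), with colour for log2 of the highest end pileup over the list's median, open boxes for no end peak and question marks for undetermined. The 13 genes listed in both selected lists alone had pileups from 29 to 86, while the 34 genes present in all 4 lists spanned low and high values.

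On soft gel the question was whether members without an end peak in ancestral cells had one in selected cells. Of 25 members with no end peak in ancestral cells on soft gel, 17 had one in selected cells on soft gel (68%), and these are called gained. Over all genes 1100 of 4649 were gained by the same rule, 23.7%. Of 9 members with no end peak in selected cells on soft gel, 1 had one in ancestral cells, FOXD4L5, while 7% of all such genes did (267 of 3816). On stiff gel 19 of 25 members were gained in selected over ancestral cells (76%), against 18.7% of all genes (822 of 4395). The number lost on stiff gel was 0 of 6, against 7.19% of all genes (277 of 3850). The 2 comparisons use separate lists, and 13 members were gained in both of them.

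An end peak of a gained gene can overlap a peak of the other list that lies farther than 1 kb from either gene end, inside or outside the gene. This was so at 1 of the 17 members gained on soft gel, FOXI2 (5.88%, against 13.5% of all genes gained), and at 3 of 19 on stiff gel, FOXD4L5, FOXI2 and SOX8 (15.8%, against 10.1%). The peak lost at FOXD4L5 on soft gel also overlapped one of selected cells, so there the state turned on the 1 kb limit.

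The shares were similar without the near-identical copies. With the FOXD4 copies, FOXO3B and FOXL2NB left out, 15 of 22 were gained on soft gel (68.2%, against 23.6% of all genes) and 13 of 19 on stiff gel (68.4%, against 18.6%). The counts did depend on where an end was drawn. With the annotated start alone, 11 of 18 were gained on soft gel (61.1%, against 25% of all genes) and 11 of 17 on stiff gel (64.7%, against 19.2%), and with ends drawn to 3 kb 13 of 17 (76.5%, against 23.8%) and 11 of 16 (68.8%, against 18.5%) were gained.

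**Figure D2:**
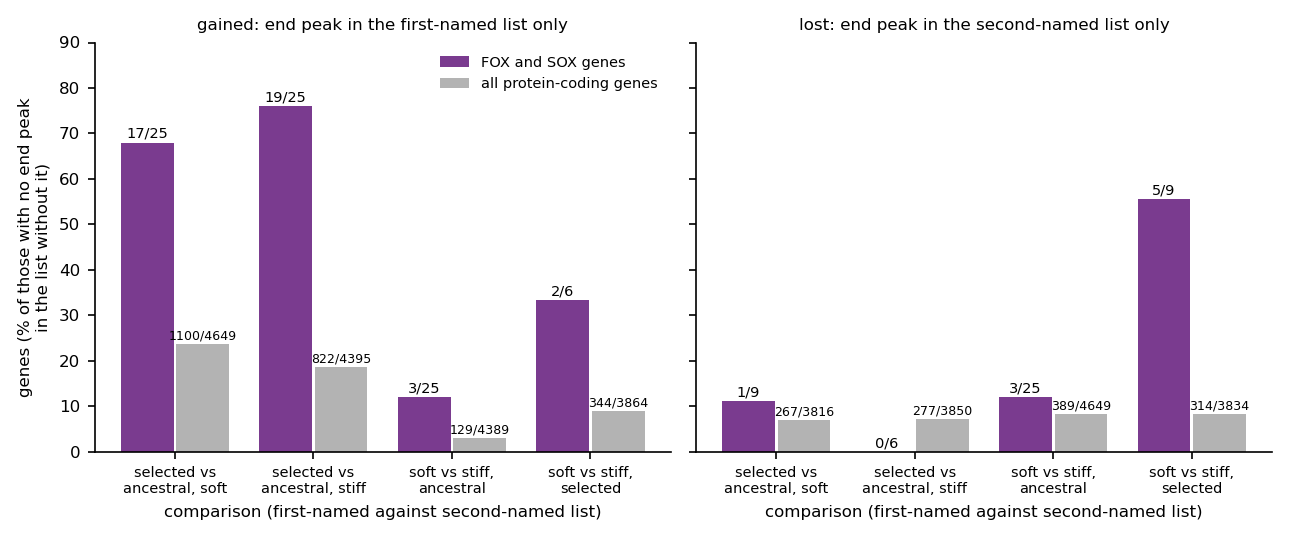
Share of genes with an end peak gained or lost, in % of the genes with no end peak in the list without it, for FOX and SOX genes beside all protein-coding genes in each comparison. Gained shares in selected over ancestral cells were 68% and 76% for the members on soft and stiff gel, against 23.7% and 18.7% for all genes.

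FOXC2, FOXD1 and FOXF1 were among the forkhead genes gained. FOXC2, a mesenchyme and lymphatic factor, had a peak inside the gene of pileup 50 at chr16:86567237-86567951 in selected cells on soft gel and of pileup 54 at chr16:86567156-86567974 on stiff gel. FOXF1, a factor of lung and gut mesenchyme, had an end peak in selected cells on stiff gel alone, with a pileup of 45. FOXD1, a factor of kidney stroma, had pileups of 30 on soft and 39 on stiff gel in selected cells, both peaks crossing the start shown in its sequence above. No ancestral list had an end peak at these 3 genes. Each ancestral list did have 1 peak in or within 10 kb of FOXC2 and 2 each at FOXD1 and FOXF1. With ends drawn to 3 kb, none of the 3 genes was gained on either gel.

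Genes of the FOXI and FOXE subclasses were also gained. FOXI1, a factor of inner ear and kidney ion-transporting cells, had pileups of 57 on soft and 62 on stiff gel in selected cells, and its close relative FOXI2 had 72 and 55. The peaks at both were among the wider ones, spanning 1998 and 1255 bases at FOXI1 and 3863 and 2085 bases at FOXI2 on soft and stiff gel, and each contained the whole printed window. FOXE3, a lens factor, had pileups of 53 and 43. FOXE1, a thyroid factor, reached 93 on soft gel and 88 on stiff gel in selected cells, while ancestral cells had no end peak on soft gel and a pileup of 47 on stiff gel. FOXE1 was thus gained on soft gel alone.

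The remaining forkhead genes gained have less studied roles or near-identical copies. FOXB2, of the neural FOXB subclass, had a pileup of 36 in selected cells on soft gel and no end peak elsewhere. FOXR1 had end peaks at both ends in both selected lists. The tallest had a pileup of 49 at its start on soft gel (chr11:118971526-118972655) and of 43 at its far end on stiff gel (chr11:118979034-118981789), where the start had 41. FOXL2, an ovarian factor, and its neighbour FOXL2NB shared 1 peak of pileup 36 in selected cells on stiff gel, so they count as 1 event. Among the FOXD4 copies, FOXD4 had 64 and 52 and FOXD4L1 had 68 and 57 in selected cells on soft and stiff gel, with no end peak in ancestral cells. FOXD4L3 and FOXD4L6 had an end peak in both selected lists and in ancestral cells on soft gel, and were gained on stiff gel.

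SOX genes gained came from groups B, E, F and H. SOX2, a pluripotency and neural stem cell factor of group B, had pileups of 47 on soft and 29 on stiff gel in selected cells, outside the gene and within its host transcript SOX2-OT. SOX1, its neural relative, had an end peak in selected cells on soft gel alone, with a pileup of 58, which overlapped a peak of selected cells on stiff gel lying farther than 1 kb from the gene. With ends drawn to 3 kb it was gained on both gels. SOX8 and SOX10, the neural crest factors of group E, had pileups of 86 and 81 and of 32 and 38 in selected cells on soft and stiff gel. The third member of that group, SOX9, had an end peak in all 4 lists, with pileups of 325 and 400 in selected cells and 604 and 838 in ancestral cells.

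In group F, SOX17, an endoderm and endothelial factor, had pileups of 45 on soft and 40 on stiff gel in selected cells and no end peak in ancestral cells. SOX7 was gained on soft gel, with a pileup of 43, and was present on stiff gel in both cell populations, with 47 in selected and 80 in ancestral cells, from peaks at opposite ends of the gene. SOX18, the remaining endothelial factor, was present in all 4 lists. SOX30, a spermatid factor of group H, had pileups of 58 and 49 in the selected lists; its peak also lies within 1 kb of an end of C5orf52, as that of SOX8 does for LMF1, and SOX10 shares its locus with POLR2F, so these peaks cannot be assigned to the SOX gene alone.

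The peaks gained were low beside those present in both lists. The lowest pileup listed in selected cells was 27 on soft and 26 on stiff gel. On soft gel the 17 gained peaks had pileups from 30 to 93 with a median of 53, and the caller's fold enrichment was 2.14 to 6.49 with a median of 3.73. On stiff gel the 19 had pileups from 29 to 81 with a median of 45, and a fold of 2.204 to 6.02 with a median of 3.38. The median fold over all genes gained was 2.97 on soft and 2.94 on stiff gel. Members with an end peak in both lists had a median fold of 11.2 on soft gel (36 genes) and 18.3 on stiff gel (38 genes) in selected cells, against 22.5 and 31.3 for all such genes. The median fold of the whole selected lists was 3.59 on soft and 4.19 on stiff gel. Peaks gained at members thus had a median near that of the list on soft gel and below it on stiff gel.

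A −log10 q of at least 10 was reached by 12 of the 17 on soft gel, against 443 of 1100 for all genes gained, and by 10 of the 19 on stiff gel, against 291 of 822. With that minimum applied to both lists, 15 of 28 members were gained on soft gel (53.6%, against 14.2% of all genes) and 12 of 27 on stiff gel (44.4%, against 10.5%). FOXD1, SOX10 and SOX17 were then gained on neither gel, and SOX2 on soft gel alone. All 13 members gained on both gels had end peaks that overlapped between the 2 selected lists, as did 96% of the 595 genes gained on both gels.

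**Figure D3:**
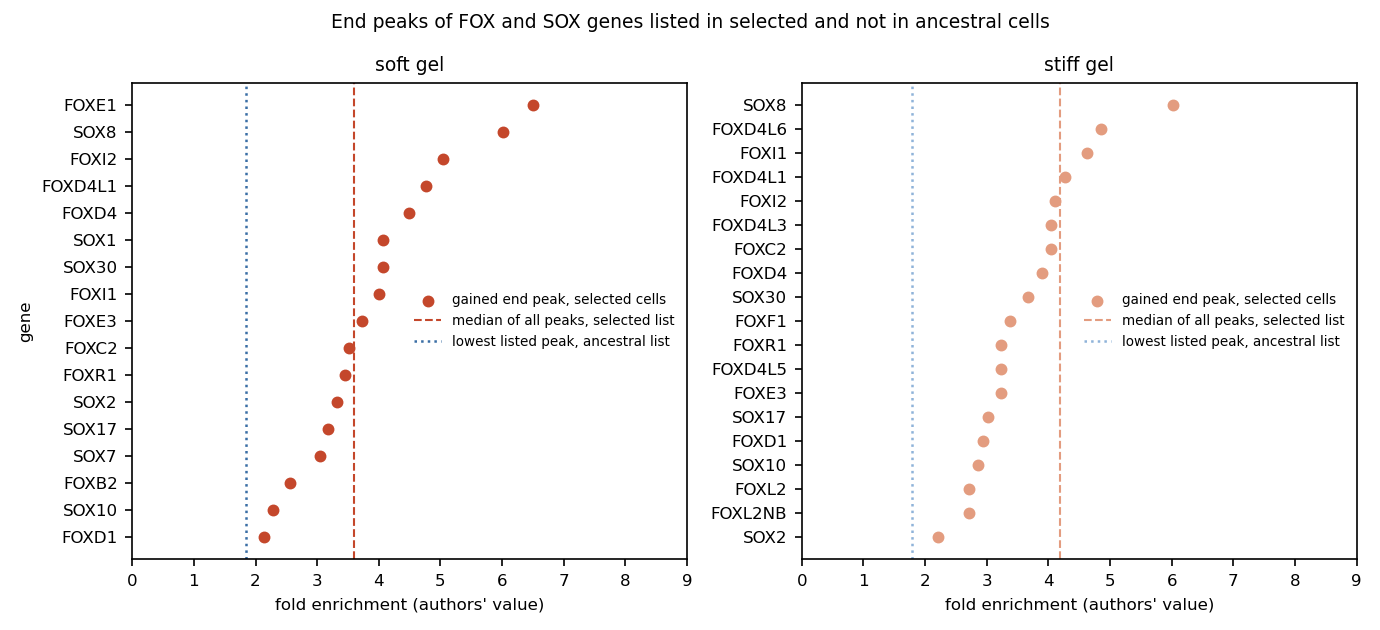
Fold enrichment given by the authors' caller (x axis) at each end peak gained in selected over ancestral cells, by gene (y axis), for soft and stiff gel. Values run from 2.14 to 6.49 on soft gel and from 2.204 to 6.02 on stiff gel, with SOX8 and, on soft gel, FOXE1 at the high end.

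Peaks around the gained members were counted out to 5 Mb, leaving out each gene's own 10 kb surroundings. On soft gel 14 of 17 gained members lay where peaks found in selected cells alone outnumbered peaks found in ancestral cells alone, and FOXB2, FOXD4 and SOX17 lay where the reverse held. The ratio of the 2 counts had a median of 3.80 and ran from 0.243 to 19.7. On stiff gel 9 of 19 lay in surroundings with more peaks in selected cells alone and 10 in surroundings with more in ancestral cells alone, with a median ratio of 0.988 and a range of 0.137 to 6.21. At SOX17, for example, the surroundings held 9 peaks of selected cells alone and 37 of ancestral cells alone on soft gel, and 7 and 51 on stiff gel. Over all autosomes peaks of selected cells alone also outnumbered those of ancestral cells alone, 44811 against 18409 on soft gel and 31385 against 20997 on stiff gel. Counts around other genes are not given, so the lean cannot be called particular to these loci. Surroundings of neighbouring genes also overlap, and FOXL2 and FOXL2NB both had 9 and 59 on stiff gel. The part of the surroundings in the gains was not tested.

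Promoter windows were found for 47 of the 67 genes, and 35 of these were CpG-rich (74.5%, against 69% of all genes), meaning a GC content of at least 50% and an observed-to-expected CpG ratio of at least 0.6. Among genes gained on 1 gel or both, 11 of 16 members with a window were CpG-rich (68.8%), against 49.8% of all genes gained. Within CpG-rich promoters with no ancestral end peak, 9 of 12 members were gained on soft gel (75%), against 36.5% of all genes, and 8 of 11 on stiff gel (72.7%), against 32.5%. Within the other promoters 2 of 3 members were gained on soft gel, against 16.9% of all genes, and 5 of 5 on stiff gel, against 11.7%. TGTTTAC was in 0 of the 16 windows of gained members and its variant TGTTTGC in 3, those of the near-identical copies FOXD4, FOXD4L3 and FOXD4L6, against 3.77% and 4.52% of all genes' windows.

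Members with an end peak in all 4 lists included FOXQ1, FOXM1, FOXO1, FOXO3 and FOXA1. FOXQ1, which promotes mesenchymal traits in breast cells, had end pileups of 523 and 736 in selected cells on soft and stiff gel, against 1780 and 2341 in ancestral cells. FOXM1 had 127 and 145 in selected cells, against 289 and 444 in ancestral cells, from a peak that also lies at an end of RHNO1. FOXO1, which AKT excludes from the nucleus, had 130 and 169, against 304 and 492, and FOXO3 had 313 and 393, against 758 and 914. FOXA1 had 121 and 141 in selected cells, against 145 and 362 in ancestral cells, and in at least 1 list its peak also lies at an end of TTC6. These are raw pileups, and the list medians were themselves lower in selected cells. Over the list median and relative to all genes, the log2 ratio at FOXA1 was 0.82 on soft gel (counting interval 0.46 to 1.18) and −0.093 on stiff gel (−0.38 to 0.19).

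The tallest end peaks in every list belonged to FOXN2 and FOXA3. FOXN2 had pileups of 1146 and 1458 in selected cells and 2521 and 3239 in ancestral cells, and FOXA3, a liver factor whose end peak also reaches SYMPK, had 1094 and 1246, against 2124 and 2473. FOXD2 had 821 and 1147, against 1773 and 2394. FOXN1, the thymic epithelium factor, was among the lowest, with 53 and 48 in selected cells and 37 and 45 in ancestral cells. FOXC1 had 80 on soft gel and 389 on stiff gel in selected cells, against 728 and 1090, but selected cells on soft gel skip a peak number at its end, so the 80 is no measure of its tallest peak.

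For genes with an end peak in both lists of a comparison, the highest end pileup was divided by its list's median, and the log2 ratio of the 2 lists was set against the same over all genes. Intervals are 95% and cover counting error only. The median over members, relative to all genes, was 0.048 on soft gel in selected over ancestral cells (36 genes) and 0.018 on stiff gel (38 genes). Leaving out genes with a skipped number at an end gave −0.040 on soft gel (32 genes) and 0.024 on stiff gel (35 genes), so the sign on soft gel depends on that choice. The all-gene medians that were subtracted lay at 0.038 and −0.030 without those genes.

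Single members stood further out on soft gel. More than 2-fold above the all-gene median in selected over ancestral cells were 7 of 32 members (21.9%), against 4.77% of all genes, and more than 2-fold below were 0, against 1.28%. SOX4, a group C factor linked to epithelial-mesenchymal transition, had pileups of 210 in selected and 166 in ancestral cells, a relative log2 ratio of 1.42 (1.12 to 1.73). FOXF2, a mesenchymal factor of gut and palate, had 99 and 75 (1.48, 1.04 to 1.94), and FOXN1 had 53 and 37 (1.60, 0.97 to 2.25). FOXB1 had 67 and 68 (1.06, 0.55 to 1.57), and the copies FOXD4L3, FOXD4L4 and FOXD4L6 completed the 7. The share without these copies is not given. Most of these peaks were low in ancestral cells, under the list median of 111. Among genes with an end peak in both lists, the median pileup in selected cells on soft gel was 161.5 for members and 325 for all genes. On stiff gel these medians were 247.5 and 425. The part of peak height in these shares was not tested.

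The lowest on soft gel were FOXK2, FOXQ1, FOXP1, FOXA2 and FOXL3. FOXK2, which with FOXK1 acts on glycolysis and autophagy genes, had 141 in selected and 568 in ancestral cells (−0.93, −1.20 to −0.66). FOXQ1 lay at −0.68 (−0.83 to −0.54) and FOXP1, a repressor in lymphoid, neural and epithelial cells, at −0.60 (−0.98 to −0.23), with pileups of 81 in selected and 260 in ancestral cells. FOXA2, a liver and lung endoderm factor, lay at −0.60 (−1.10 to −0.12) and FOXL3 at −0.58 (−0.72 to −0.43).

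On stiff gel 3 of 35 members were more than 2-fold above (FOXD4L4, FOXE1 and FOXN1), against 3.8% of all genes, and 1 was more than 2-fold below, against 0.867%. FOXE1 was the highest, with 88 in selected and 47 in ancestral cells (2.17, 1.64 to 2.71), followed by FOXN1 at 1.36 (0.74 to 1.98) and FOXD4L4 at 1.22 (0.69 to 1.75). SOX4 was again on the high side, with 153 in selected and 236 in ancestral cells (0.64, 0.34 to 0.94), next to FOXB1 at 0.61 (0.16 to 1.05). FOXA2 was the lowest, with 60 in selected and 303 in ancestral cells (−1.07, −1.49 to −0.67). FOXK2 lay at −0.77 (−0.94 to −0.60), FOXL3 at −0.66 (−0.81 to −0.52) and FOXP1 at −0.58 (−0.91 to −0.27). FOXF2 had 87 in selected and 279 in ancestral cells on this gel (−0.41, −0.78 to −0.06), below the all-gene median where on soft gel it was above it. Whether the 2 gels differ at FOXF2 beyond the spread between samples was not tested.

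**Figure D4:**
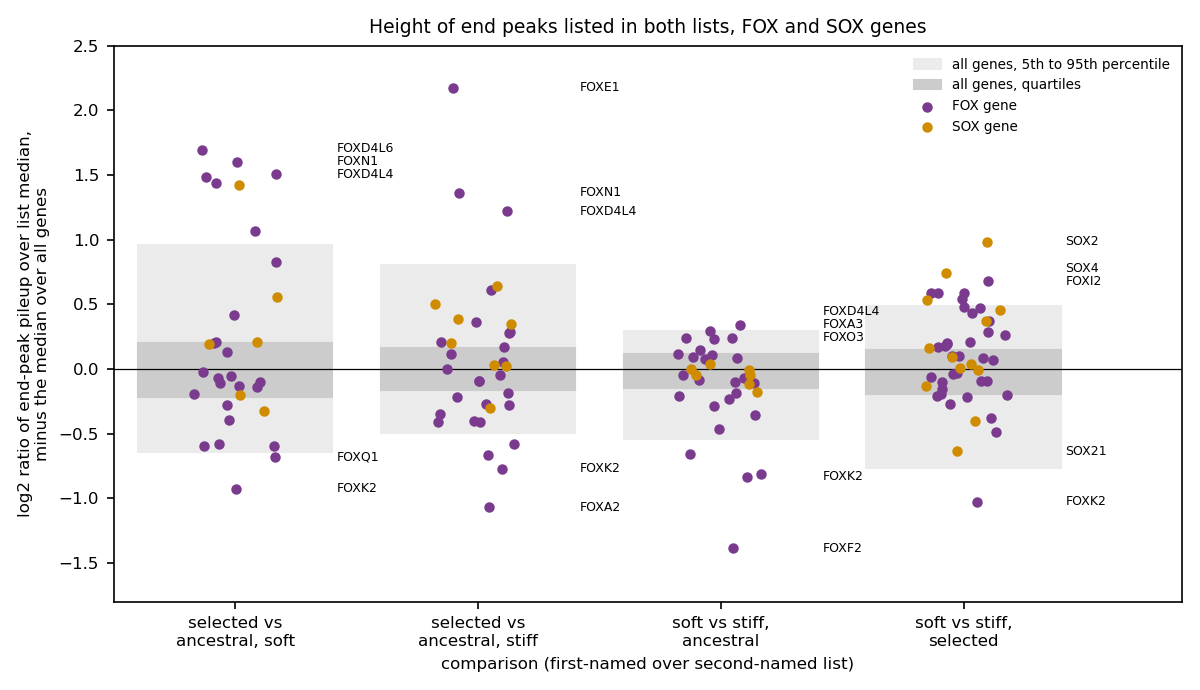
Log2 ratio of end-peak pileup over list median, minus the all-gene median, for each FOX and SOX gene (points) in the 4 comparisons, with grey boxes for all genes. Members centre near 0 in each comparison. The highest point is FOXE1 at 2.17 on stiff gel, and the lowest is FOXF2 at −1.38 in ancestral cells on soft over stiff gel.

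Beyond gene ends, 361 and 341 peaks had their summit in a member or within 10 kb in selected cells on soft and stiff gel, against 266 and 274 in ancestral cells. The median per gene was 4 and 4 in the selected lists and 2 and 2 in the ancestral lists, while over all genes it was 4 and 4 in selected cells and 3 and 4 in ancestral cells. FOXK1 had 30 and 24 peaks in selected cells, against 12 and 14 in ancestral cells, FOXN3 had 28 and 13, against 14 and 16, and FOXK2 had 22 and 20, against 17 and 17. FOXP1 ran the other way, with 24 and 18 peaks in selected cells, against 26 and 28 in ancestral cells. SOX13, of group D, had 15 and 13 peaks, against 6 and 5, and FOXN1 had 14 and 19, against 13 and 12. FOXN4, a factor of retinal and spinal interneurons, had 9 and 10, against 2 and 4, and FOXO3 had 9 and 9, against 11 and 12. FOXP4 had 6 and 6, against 15 and 14, but every list skips a peak number at 1 of its ends.

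A peak was called unshared where it overlapped no peak of the other list by 1 base or more and lay at none of that list's skipped numbers. On soft gel 155 of 361 member peaks were found in selected cells alone (42.9%) and 30 of 266 in ancestral cells alone (11.3%), a log2 ratio of 2.37 (counting interval 1.80 to 2.98), against 2.02 for peaks at all protein-coding genes. On stiff gel 114 of 341 (33.4%) were found in selected cells alone and 34 of 274 (12.4%) in ancestral cells alone, a log2 ratio of 1.75 (1.18 to 2.34), against 1.14 for all genes. These ratios rest on low peaks. With a −log10 q of at least 10 asked of every peak, the numbers were 55 and 39 on soft gel (log2 0.50) and 41 and 42 on stiff gel (−0.035), so the direction on stiff gel turned. That minimum was reached by 57.5% and 63.2% of all peaks in selected cells on soft and stiff gel, against 78.7% and 81.4% in ancestral cells. The all-gene ratio at that minimum is not given, so the turn cannot be called particular to the members. By gene, 39 members on soft gel had more unshared peaks in selected cells (background 50.2% of all genes) and 6 had more in ancestral cells (14.2%). On stiff gel 37 had more in selected cells (40.4%) and 6 more in ancestral cells (20.6%).

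FOXK1 led on both gels, with 19 peaks in selected cells alone and 0 in ancestral cells alone on soft gel, and 10 and 0 on stiff gel. Its surroundings out to 5 Mb leaned the same way, with 512 against 40 on soft gel and 416 against 46 on stiff gel. Of the neural crest factors, SOX10 had 7 and 0 on soft and 7 and 0 on stiff gel, and SOX8 had 7 and 0 and then 5 and 0. FOXN4 had 7 and 0 on soft gel and 7 and 1 on stiff gel, SOX13 had 6 and 0 and then 7 and 0, and FOXN1 had 7 and 1 and then 7 and 0. FOXE3 had 7 and 1 on soft gel and 3 and 0 on stiff gel. The surroundings of these genes also held more peaks of selected cells alone than of ancestral cells alone, on both gels, and their part in these counts was not tested.

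Few members leaned to ancestral cells. FOXP1 had 4 peaks in selected cells alone and 9 in ancestral cells alone on soft gel, and 1 and 12 on stiff gel, in surroundings of 35 and 45 on soft gel and 28 and 48 on stiff gel. FOXO3 had 0 and 3 on each gel, and FOXP2, a factor needed for speech, had 1 and 3 on soft gel and 2 and 4 on stiff gel. FOXJ3 had 0 and 3 on soft gel. FOXN3 split by gel: 15 in selected cells alone and 1 in ancestral cells alone on soft gel, but 1 and 4 on stiff gel, while its surroundings leaned to selected cells on both gels, 284 against 22 and 143 against 34.

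**Figure D5:**
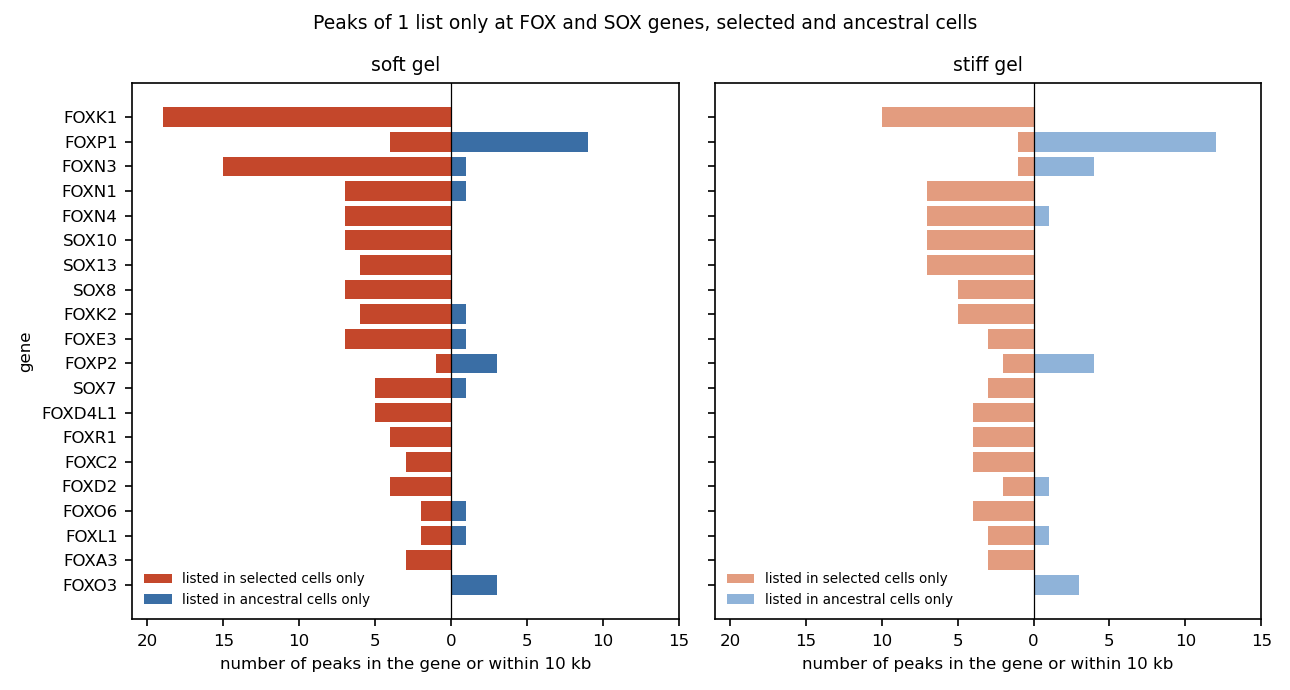
Number of peaks in each gene or within 10 kb found in selected cells alone (bars to the left) and in ancestral cells alone (bars to the right), on soft and stiff gel. FOXK1 has 19 and 10 peaks of selected cells alone, and FOXP1 has 9 and 12 of ancestral cells alone.

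Substrate stiffness was compared within each cell population. These comparisons reuse the lists above, so their values are not independent of the ones already given. In ancestral cells on soft over stiff gel 3 of 25 members were gained, all FOXD4 copies (FOXD4L3, FOXD4L5 and FOXD4L6), against 2.94% of all genes. Without the copies, FOXO3B and FOXL2NB it was 0 of 19, against 2.87%. The peak at FOXD4L5 overlapped one on stiff gel. End peaks were lost at 3 of 25, FOXE1, FOXN4 and SOX7, against 8.37% of all genes, with pileups on stiff gel of 47, 88 and 80. The stiff-gel peak at FOXN4 also lies within 1 kb of an end of MYO1H, in ancestral and in selected cells. Unshared member peaks numbered 19 on soft gel alone and 45 on stiff gel alone, a log2 ratio of −1.24 (−2.10 to −0.44), against −1.48 for all genes. By gene, 7 members had more peaks on soft gel alone (background 8%) and 21 more on stiff gel alone (37.6%).

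In selected cells on soft over stiff gel 2 of 6 members were gained, FOXB2 and SOX1, against 8.9% of all genes. The peak at SOX1 overlapped one on stiff gel, and with ends drawn to 3 kb 1 of 5 was gained, FOXB2 (20%, against 10.9%). Lost were 5 of 9, FOXD4L5, FOXF1, FOXL2, FOXL2NB and FOXN4, against 8.19%, and this is 3 of 7 without the copies and FOXL2NB, against 8.14%. The stiff-gel peak at FOXD4L5 overlapped one on soft gel, and with ends drawn to 3 kb 0 of 4 were lost, against 9.09% of all genes. Member peaks numbered 68 on soft gel alone and 36 on stiff gel alone, a log2 ratio of 0.92 (0.31 to 1.54), against 0.70 for all genes. FOXN3 had 15 on soft gel alone and 0 on stiff gel alone, and FOXK1 had 11 and 3. By gene, 19 members had more on soft gel alone (background 31.3%) and 13 more on stiff gel alone (20.4%). With a −log10 q of at least 10 the member peaks were 25 and 22 (log2 0.18), and the all-gene ratio at that minimum is not given.

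End-peak heights moved little with the gel. In ancestral cells the median over members relative to all genes was −0.064 on soft over stiff gel, and 0.043 when the highest peak within 10 kb was used in place of the end peak. In selected cells it was 0.090. The all-gene medians subtracted were −0.26 in ancestral and −0.15 in selected cells. More than 2-fold above there were 0 members in either population, against 0.132% and 0.715% of all genes in ancestral and selected cells, and more than 2-fold below there was 1 in each, against 1.26% and 2.64%. In ancestral cells this was FOXF2, with 75 on soft and 279 on stiff gel (−1.38, −1.77 to −1.01), followed by FOXK2 at −0.83, FOXA1 at −0.81, FOXN3 at −0.66 and FOXA2 at −0.47. In selected cells it was FOXK2, with 141 on soft and 351 on stiff gel (−1.03, −1.32 to −0.74), followed by SOX21 at −0.64, FOXJ3 at −0.49, SOX12 at −0.40 and FOXK1 at −0.38.

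The highest in ancestral cells were FOXD4L4 at 0.34, FOXA3 at 0.29, FOXO3 at 0.24, FOXL3 at 0.24 and FOXN1 at 0.23. In selected cells they were SOX2, with 47 on soft and 29 on stiff gel (0.98, 0.29 to 1.70), SOX4 at 0.74, FOXI2 at 0.68, FOXE3 at 0.59 and FOXD4 at 0.59.

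Genes that act with FOX and SOX factors were read from lists chosen by role. Of 8 FOXO regulators, 8 had an end peak in every list but that of selected cells on stiff gel, where SGK1, a kinase that phosphorylates FOXO proteins, had none against a pileup of 58 in ancestral cells. No gain or loss was determined among 12 FOXO targets, 10 FOXM1 targets or 7 SOX10 targets, and 10 of 10 FOXM1 targets had an end peak in all lists. Of 7 SOX9 cartilage targets, ACAN and COL2A1 were gained on soft gel in selected over ancestral cells, with pileups of 35 and 38. Of 7 POU and PAX partners, PAX6, an eye and neural factor, and POU3F3, a neural factor, were gained on both gels, with pileups of 45 and 31 and of 42 and 38 on soft and stiff gel.

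Markers were read in the same way to check the labelled line. The mesenchymal markers VIM, AXL, CAV1, FN1, MET and ZEB1 had an end peak in all 4 lists, and CD44 had one in both selected lists and was undetermined in both ancestral lists. Luminal markers had end peaks at 8 and 9 of 10 in selected cells and 9 and 9 in ancestral cells, ESR1 having none in any list, so end peaks did not separate the luminal from the mesenchymal list. Among 6 T and B cell markers, end peaks were listed at 4 and 3 in selected cells on soft and stiff gel, against 1 and 1 in ancestral cells, with CD3D and LCK gained on both gels and PTPRC and MS4A1 at none in any list. Neuron markers had 3 and 4 of 6 in selected cells, against 4 and 4 in ancestral cells, with RBFOX3 undetermined in both selected lists and NEUROD6 gained on stiff gel with a pileup of 32. The part of these in the gains at FOX and SOX genes was not tested.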

How the data were processed

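The authors named MACS2 2.2.7.1, Bowtie2 2.4.5, Trimmomatic 0.36, MultiQC 1.1 and FastQC 0.11.4, with GRCh38 as the build, per the submitters' processing notes. How the 4 samples of a group were combined, how reads mapping to several places were treated and which peaks were removed is not stated there. The deposited lists give for each peak the summit pileup, a coverage signal in whole numbers. The deposited fold enrichment is a ratio from the authors' caller, named so per the file headers, which do not give its background. The background level given above was worked back here from the pileup and fold enrichment of each peak. The −log10 q values are also deposited, per the file headers, and the p-value column was not used. Peaks are the authors' own values and were compared by position and overlap only. Genes, promoter windows and coordinates came from the RefSeq tables of GRCh38.p14. Depth per sample is not given in the sources used here.

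Calculations used scipy 1.17.1, pandas 2.3.3 and numpy 2.4.6 in Python 3.11.15, with figures from matplotlib 3.10.9. The counting steps were tested on the deposited list of ancestral cells on soft gel after known peaks were removed from it. The intervals were tested on simulated counts. Counting intervals are exact conditional binomial intervals for a pair of Poisson counts and cover counting error only. No test between groups was possible with 1 list per group. Genes named are those gained or lost, the 5 highest and 5 lowest height ratios per comparison, the 8 with most peaks and most unshared peaks, those with no peak, and a list of breast and mesenchymal factors. Some named items are not reported here. The genes, lists and rules were chosen with earlier results of these data known. Alternatives were a −log10 q minimum of 10, ends to 3 kb, the start alone, 50% overlap, summits in the gene body, the highest peak within 10 kb and skipped numbers counted as no peak.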

Additional observations from a re-analysis of the deposited data

Results flagged for a closer look

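FOXD4L5, a FOXD4 copy, differed between the gels in the direction of its end peak. On soft gel selected cells had none, against a pileup of 53 in ancestral cells, while on stiff gel selected cells had a pileup of 43 and ancestral cells none. Each list had 1 peak in or within 10 kb of FOXD4L5, and 0 of these were unshared in any of the 4 comparisons. Its state thus turned on whether the peak came within 1 kb of an annotated end of the gene. With ends drawn to 3 kb, 0 of 4 members were lost on soft gel, against 9.71% of all genes. FOXN3 stood out in the same way for unshared peaks, with selected-only minus ancestral-only counts of 14 on soft gel and −3 on stiff gel. Neither difference between gels was tested, since each group has 1 list.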

How the results depend on the processing

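Of 72 recalculated values, 46 stayed within 1.5 times the count or within the counting interval, 22 moved outside and 4 changed sign. A −log10 q of at least 10 gave log2 ratios of unshared peaks of 0.50 on soft gel and −0.035 on stiff gel in selected over ancestral cells. It gave 0.18 in selected cells on soft over stiff gel, and the all-gene ratios at that minimum are not given. With it 12 of 27 were gained on stiff gel (44.4%, against 10.5% of all genes). In soft over stiff gel 1 of 27 was gained in ancestral cells (3.7%, against 1.87%). In selected cells 4 of 15 were gained (26.7%, against 5.23%) and 3 of 14 lost (21.4%, against 7.66%). The same minimum gave a median height ratio of −0.041 on soft gel, and leaving out genes with a skipped number at an end gave −0.040. Counting skipped numbers as no peak gave an unshared log2 ratio of 1.46 on soft gel. Lost were then 4 of 12 on soft gel (33.3%, against 13.2% of all genes) and 1 of 10 on stiff gel (10%, against 12.3%). In selected cells on soft over stiff gel 4 of 10 were gained (40%, against 11.9%). Ends to 3 kb gave 0 of 4 lost on soft gel (against 9.71% of all genes) and 11 of 16 gained on stiff gel (68.8%, against 18.5%). In selected cells on soft over stiff gel 1 of 5 was gained (20%, against 10.9%) and 0 of 4 lost (against 9.09%). In selected over ancestral cells the start alone gave 11 of 18 gained (61.1%, against 25% of all genes) and 0 of 7 lost (against 6.04%) on soft gel. On stiff gel it gave 11 of 17 gained (64.7%, against 19.2%). On soft over stiff gel it gave 1 of 17 gained in ancestral cells (5.88%, against 2.58%) and 3 of 7 lost in selected cells (42.9%, against 7.76%). Leaving out the FOXD4 copies, FOXO3B and FOXL2NB was a choice made after seeing the data, as was leaving out skipped numbers. Without them 0 of 7 were lost on soft gel in selected over ancestral cells (against 6.97% of all genes). On soft over stiff gel 0 of 19 were gained in ancestral cells (against 2.87%) and 3 of 7 lost in selected cells (42.9%, against 8.14%). The highest peak within 10 kb gave a median height ratio of 0.043 in ancestral cells. The cause was not tested. No paired analysis was possible because each group has 1 list whose columns carry no replicate number, and for the same reason no replicate could be left out. Low pileups, lists of unequal depth and the skipped wide peaks limit what an absent peak shows.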

Other observations

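FOX and SOX genes on the X chromosome were outside the rule. FOXO4, a FOXO factor, had an end peak in all 4 lists, with pileups of 85 and 78 in selected cells on soft and stiff gel, against 237 and 286 in ancestral cells. FOXP3, FOXR2 and SOX3 had no end peak in any list. One neuron marker, TUBB3, had end pileups of 550 and 560 in selected cells on soft and stiff gel, against 36 and 55 in ancestral cells, although the list medians were lower in selected cells. It was named after its values were seen.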
